A study of Mus musculus with 2 samples.

Results

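Chemokines and their receptors were followed in osteoclast cultures of wild type and Dnmt3a knockout mouse cells. A gene was included when its symbol started with Ccl, Cxcl, Ccr, Cxcr, Cx3cl, Cx3cr, Xcl, Xcr or Ackr and a digit, or was Pf4 or Ppbp. A probe joined its gene through the RefSeq accession in the scanner file. This gave 59 genes of the 20654 that could be named on the array, 36 chemokines and 23 receptors, on 70 probes. RNA from 1 culture per genotype was hybridised to 1 array each (Agilent 1-colour, Cy3). Both groups came from female C57BL/6 mice, labelled wild type and Dnmt3a knockout. Both shared the same treatment: nonadherent bone marrow cells grew for 2 days with M-CSF, a macrophage growth factor, and the adherent macrophage precursors were then given RANKL and M-CSF, which together drive osteoclast formation. The age of the mice, the deleted allele, which cells lost the gene and whether animals were pooled are not given in the sources used here.

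Chemokines are small secreted proteins that direct the migration of leukocytes, and they are sorted into CC, CXC, CX3C and XC classes by the spacing of their first cysteines. They act on G protein-coupled receptors named for the same classes, and atypical receptors (Ackr) bind chemokines without the usual G protein signal and remove them. In bone marrow, chemokines hold or release blood cells and guide monocytes, from which osteoclasts form. Dnmt3a is an enzyme that places methyl groups on cytosines of CpG dinucleotides.

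Levels are processed signals, the brightness of a spot after background subtraction, and are not compared between genes. Signals summed over a list are unscaled, and the brightest genes of the list weigh most in them. Differences are log2 values, knockout minus wild type, after each array was scaled to its own 75th percentile. The ± value (scanner error) is what the scanner software estimates for reading the 2 spots, carried to log2. It ran from 0.20 to 0.32 over the members measured and leaves out the spread between cultures. With neither genotype replicated, differences were described by size and not tested. The targeted gene Dnmt3a had signals of 7042 (wild type) and 1822 (knockout), a difference of -1.92 ± 0.20; its only probe may lie outside the deleted stretch. Scaling to 8 spike-in probes in place of the 75th percentile lowers every difference by 0.53, which puts the median gene at -0.52 in place of 0.01. A value called higher or lower here is therefore higher or lower relative to the bulk of the genes. In bulk RNA of this kind, fewer cells of a type and less RNA per cell cannot be told apart.

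Of the 59 genes, 37 were well above background on both arrays (22 chemokines and 15 receptors), 3 on the knockout array only and 19 on neither. Among the 37, 26 lay above 0 and 11 below, with a median of 0.18, and 11 differed by less than their scanner error. The median was 0.16 for chemokines (15 of 22 above 0) and 0.21 for receptors (11 of 15 above 0). Over all 13479 genes measured on both arrays the median was 0.01 and 51.9% lay above 0. With spike-in scaling 10 of the 37 stayed above 0, against 7.25% of all measured genes. The median was then -0.36 for the 37 and -0.52 for all measured genes. Cxcl10 was the only member at least 2-fold apart (1 of 37, 2.70%, against 1.55% of all measured genes in either direction). By direction, 0.824% of all measured genes (1 member) were past 2-fold upward and 0.727% (0 members) downward. At 1.5-fold, a size chosen after the values were seen, 8 members were higher (21.6%, against 5.82% of all measured genes) and 4 were lower (10.8%, against 4.69%). The 8 were Cxcl10, Ccl24, Cxcr3, Ccl6, Pf4, Cxcr5, Ccr2 and Ccl3. The 4 were Cxcl12, Ccr1, Ccr1l1 and Ccl12. At the edge of this size, Ccl3 (0.59) lay just inside, and Cx3cl1 (-0.58) and Ccr3 (-0.58) just outside.

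**Figure D1:**
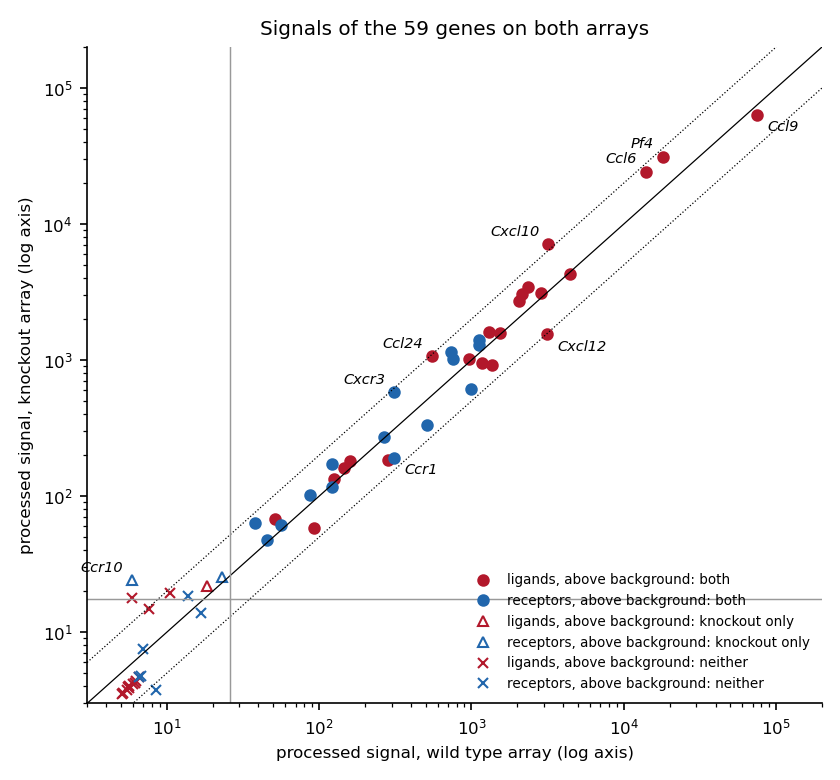
Processed signal of each of the 59 genes on the wild type array (x axis) and on the knockout array (y axis), both on log axes, chemokines in red and receptors in blue. The solid line marks equal signals before scaling, the dotted lines 2-fold, and the grey lines the lowest signal well above background on each array (25.8 and 17.7). Cxcl10 lies above the upper dotted line, Cxcl12 at the lower one, and the 19 genes drawn as crosses are not well above background on either array.

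Of the 2 measured interferon-induced chemokines, Cxcl10 had the largest difference in the measured family and Cxcl9 a smaller one. Cxcl10, which draws activated T cells through the receptor Cxcr3, had signals of 3175 (wild type) and 7081 (knockout); further pairs of signals are given in this order. That is a difference of 1.19 ± 0.20, or 2.28-fold higher on the knockout array, and it was still 0.65 with spike-in scaling. Cxcl9, a further ligand of Cxcr3, was dim, at 51.1 and 68.2, a difference of 0.45 ± 0.26 that turned to -0.09 with spike-in scaling. After normexp background correction its difference was 0.16, below its scanner error. A further Cxcl9 probe was well above background on the knockout array only (29.6 and 81.4). Its difference was 1.49 ± 0.36, or 2.81-fold higher, and 0.96 with spike-in scaling, with a wild type spot not well above background. The 2 probes differ in size but not in direction under the 75th percentile scaling. Cxcr3 itself went from 309 to 580, a difference of 0.94 ± 0.21 and of 0.41 with spike-in scaling. Both measured ligands and their receptor were thus higher on the same array relative to the bulk of the genes, Cxcl9 with the limits given above. Among 22 measured interferon-stimulated genes outside the family, 21 lay above 0, with a median of 0.79 (0.26 with spike-in scaling). Of the 22, 17 were at least 1.5-fold higher, against 5.82% of all measured genes. Cmpk2 (1.12, a further probe 0.92) and Irf7 (1.05) led them, Oas2 (0.29) was near the low end, and the 2 probes of Xaf1 disagreed (-0.21 and 0.95). Macrophage markers moved the same way: all 11 on the array were above background on both arrays and 10 lay above 0, with a median of 0.69 (0.16 with spike-in scaling). Their summed signal was 498588 and 640046, most of it from Csf1r (317392 and 332857). Marco (1.47) and Vsig4 (1.32) were highest, Csf1r (0.10, further probes 0.35 and 0.50) and Itgam (-0.27, further probes 0.32 and 0.22) lowest. The part of either list in the Cxcl10 value was not tested.

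The promoter of Cxcl10 is shown because it holds the motif through which interferon signals are known to act. The interferon-stimulated response element was searched as GAAANNGAAA on both strands, in windows from 250 bases before to 50 bases after each RefSeq gene start (build GRCm38.p6). Windows were present for 45 of the 59 genes, 49 windows in all. The motif was in 3 of them (6.12%), against 3.44% of 32851 windows of the same length. The 3 genes were Cxcl10, Ccl19 and Cxcl14, each with 1 match on the strand of the gene. Each sequence runs 5′ to 3′ on the strand of its gene, the minus strand, with the match in capitals.
Cxcl10, chr5:92348840-92349139: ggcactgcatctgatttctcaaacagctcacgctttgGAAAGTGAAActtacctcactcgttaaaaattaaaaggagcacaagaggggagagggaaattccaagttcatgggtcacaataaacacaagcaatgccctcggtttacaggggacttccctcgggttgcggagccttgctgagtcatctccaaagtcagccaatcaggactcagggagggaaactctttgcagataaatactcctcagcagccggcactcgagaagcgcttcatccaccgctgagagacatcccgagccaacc
Ccl19, chr4:42756316-42756615: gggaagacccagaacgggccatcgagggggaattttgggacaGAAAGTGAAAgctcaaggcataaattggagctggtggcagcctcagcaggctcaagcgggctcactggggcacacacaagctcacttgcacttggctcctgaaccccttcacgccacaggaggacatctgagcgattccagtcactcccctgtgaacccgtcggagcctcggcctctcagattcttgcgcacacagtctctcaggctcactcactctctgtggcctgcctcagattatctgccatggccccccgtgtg
Cxcl14, chr13:56296502-56296801: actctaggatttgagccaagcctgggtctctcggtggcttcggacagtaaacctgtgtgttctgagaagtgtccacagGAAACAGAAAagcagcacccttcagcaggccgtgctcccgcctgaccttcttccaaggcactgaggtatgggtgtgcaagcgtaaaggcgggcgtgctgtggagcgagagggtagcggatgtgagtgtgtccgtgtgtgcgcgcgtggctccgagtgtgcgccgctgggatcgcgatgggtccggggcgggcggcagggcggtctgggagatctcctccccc
The match begins 213 bases before the gene start in Cxcl10, 208 in Ccl19 and 172 in Cxcl14. The differences of these genes were 1.19, 0.16 and -0.54, so members with the motif lay on both sides of 0. The windows of Cxcl9 and Cxcr3, which were also above 0, do not contain these letters. Ccl19, the ligand of Ccr7, had signals of 146 and 160, with a further probe at -0.05. Near-identical copies of Ccl19 exist in the mouse genome, so its signal is uncertain.

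The inflammatory CC chemokines made by myeloid cells (Ccl3, Ccl4, Ccl5, Ccl6 and Ccl9) lay above 0 in 4 of 5 cases, with a median of 0.54 (0.00 with spike-in scaling). Ccl6, a mouse ligand of Ccr1, went from 13894 to 24297, a difference of 0.84 ± 0.20 (0.30 with spike-in scaling). Ccl3, which is known to promote osteoclast formation, went from 2355 to 3469 (0.59 ± 0.20) and Ccl5 from 2150 to 3056 (0.54 ± 0.20). Both stayed at or just above 0 with spike-in scaling (0.06 and 0.00). Ccl4, which attracts monocytes and T cells, had signals of 1304 and 1606 (0.33 ± 0.20), and its sign turned with spike-in scaling (-0.20). Ccl9, a Ccr1 ligand that osteoclasts themselves produce, was the exception: its signals were 74517 and 63817, a difference of -0.19 that is smaller than its scanner error of 0.20. Its sign under this scaling is thus not settled. All 11 osteoclast markers were above background on both arrays and none lay above 0, with a median of -0.58. They ran from Tnfrsf11a (-1.20) and Calcr (-0.84) to Ctsk (-0.18) and Acp5 (-0.00), the latter both within their scanner error of 0.20. The summed signal of these markers was 1160790 and 988167, most of it from Acp5 and Ctsk. Of the macrophage markers 10 of 11 lay above 0, with a median of 0.69 (0.16 with spike-in scaling). Of the neutrophil markers 10 of 10 did, with a median of 0.47 (-0.07 with spike-in scaling). The part of these lists in the values of this group was not tested.

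The CC receptors carried by myeloid cells did not move together. Ccr1, which is carried by osteoclast precursors and osteoclasts, went from 312 to 192, a difference of -0.67 ± 0.21. Its mouse paralogue Ccr1l1 went from 990 to 611 (-0.67 ± 0.20), and the eosinophil receptor Ccr3 from 509 to 333 (-0.58 ± 0.21). Ccr2, which lets monocytes leave the marrow, went the other way, from 735 to 1140 (0.66 ± 0.20, 0.13 with spike-in scaling). These 4 receptor genes lie next to one another in the RefSeq gene table, in the order Ccr1, Ccr1l1, Ccr3, Ccr2, and the first 3 were lower and Ccr2 higher relative to the bulk of the genes. The step between Ccr3 and Ccr2 exceeded the scanner error of either and is the same under any scaling by 1 factor per array. The spot of Ccr3 lies in 1 corner of the array, where 4.86% of 556 measured genes were at least 1.5-fold lower, against 4.69% of all measured genes. The spots of Ccl12, Ccr8 and the brighter Cx3cr1 probe lie in that corner too. Macrophage markers were higher and osteoclast markers lower on the knockout array, as given above, and their part in the receptor values was not tested.

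The promoters of the neighbours on either side of that step are shown with each CpG in capitals, since CpG is the site that Dnmt3a methylates. Methylation was not measured in these arrays. Both run 5′ to 3′ on the plus strand of GRCm38.p6, from the same RefSeq windows.
Ccr3, chr9:124021721-124022020: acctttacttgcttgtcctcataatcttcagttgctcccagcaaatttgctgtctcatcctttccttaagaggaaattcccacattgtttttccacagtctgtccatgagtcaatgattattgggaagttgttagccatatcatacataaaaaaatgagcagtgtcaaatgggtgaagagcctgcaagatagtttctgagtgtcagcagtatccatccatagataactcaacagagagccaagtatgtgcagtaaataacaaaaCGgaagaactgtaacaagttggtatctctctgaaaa
Ccr2, chr9:124101933-124102232: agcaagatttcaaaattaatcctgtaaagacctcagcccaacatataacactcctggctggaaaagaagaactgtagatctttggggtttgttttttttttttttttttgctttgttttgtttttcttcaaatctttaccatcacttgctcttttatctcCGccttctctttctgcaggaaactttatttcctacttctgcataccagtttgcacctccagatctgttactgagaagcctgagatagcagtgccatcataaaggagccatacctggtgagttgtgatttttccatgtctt
Each holds 1 CpG, as does the window of Ccr1, and that of Ccr1l1 holds 3. The median over all windows was 7, and over the 49 windows of the family 4.

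**Figure D2:**
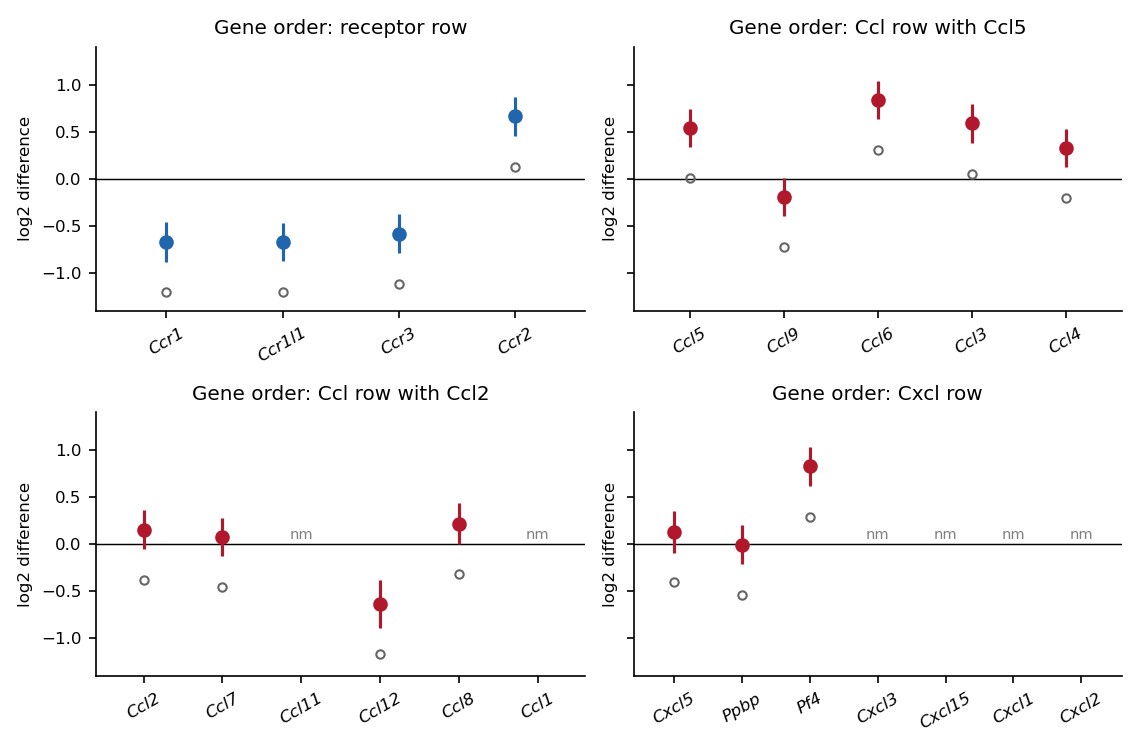
Log2 difference (y axis, knockout minus wild type) of members in the order in which they neighbour one another in the RefSeq gene table (x axis, not to scale), with bars for the scanner error. Filled points use the 75th percentile scaling, open grey circles the spike-in scaling, and nm marks a gene not measured on both arrays. Ccr1, Ccr1l1 and Ccr3 lie below 0 and Ccr2 above it under both scalings.

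The same unevenness between neighbours was seen among the chemokines. In the row Ccl5, Ccl9, Ccl6, Ccl3, Ccl4, Ccl9 alone lay below 0, between Ccl5 at 0.54 and Ccl6 at 0.84, and with spike-in scaling Ccl4 did so too. In the row Ccl2, Ccl7, Ccl11, Ccl12, Ccl8, Ccl1, which holds ligands of Ccr2, Ccl12 was the only measured gene below 0, and with spike-in scaling all 4 measured genes were. Ccl12 was dim, at 93.1 and 58.7, with a difference of -0.64 ± 0.26 that shrank to -0.35 after normexp background correction. Its spot lies in the same corner as that of Ccr3. Ccl2, the main monocyte attractant, was spotted 10 times. Its wild type signals ran from 2700 to 3043 (median 2855) and its knockout signals from 2888 to 3321 (median 3116), so the spots of the arrays overlap before scaling. The differences of the single spots ran from 0.07 to 0.26, with a mean of 0.16 and an SD of 0.06, all 10 above 0. This SD of repeated spots is below the scanner error of 0.20, and it covers technical spread within the arrays only. With spike-in scaling the mean was -0.38. Ccl7 (1531 and 1579, difference 0.07) and Ccl8 (160 and 182, difference 0.22), both monocyte attractants, differed by about their scanner error or less. Ccr2 at 0.66 thus stood above all 4 of these monocyte attractants (Ccl2, Ccl7, Ccl8 and Ccl12).

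In the CXC row Cxcl5, Ppbp, Pf4, the chemokines stored in platelets parted. Pf4, platelet factor 4, went from 17967 to 31183, a difference of 0.83 ± 0.20 (0.29 with spike-in scaling). Its neighbour Ppbp, the precursor of platelet basic protein, had signals of 4403 and 4297 and a difference of -0.01 ± 0.20. Cxcl5, which attracts neutrophils, was at 125 and 134, a difference of 0.13 ± 0.22. Of 9 further megakaryocyte and platelet markers, all were above background on both arrays and 8 lay above 0, with a median of 0.16 (-0.37 with spike-in scaling) and a summed signal of 6267 and 6668. None was at least 1.5-fold apart: Itga2b (0.46) and Gp6 (0.33) were highest and Gp1ba (-0.08) lowest. Pf4 thus lay above the whole range of that list, and inside the range of the macrophage markers (-0.27 to 1.47, median 0.69). The part of either list in the Pf4 value was not tested. The other neutrophil attractants of the row, Cxcl2, Cxcl3 and Cxcl15, were not well above background on either array. Cxcl1 was so on the knockout array only (18.4 and 21.7), with no fold to give, since the detection limit of the wild type array was 25.8.

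Ccl24, eotaxin-2, a Ccr3 ligand made by macrophages, went from 549 to 1070, a difference of 0.99 ± 0.20 that fell just short of 2-fold and was 0.46 with spike-in scaling. Its receptor Ccr3 lay at -0.58, so this ligand and receptor were on opposite sides of 0. The other chemokines grouped with it, which act on dendritic cells and type 2 responses (Ccl1, Ccl11, Ccl17, Ccl20 and Ccl22), were not well above background on either array.

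Cxcl12 was lowest of the family. It is made by marrow stromal cells and retains blood-forming cells through Cxcr4. Its brighter probe, annotated to the accession NM_001012477, went from 3122 to 1550, a difference of -0.98 ± 0.20, or 1.97-fold lower. Its further probe, annotated to another Cxcl12 transcript (NM_021704), went from 689 to 275, a difference of -1.30 ± 0.21. Both probes were thus lower on the knockout array, and their mean, -1.14, lies past 2-fold. Cxcr4, its receptor, had signals of 1127 and 1282, a difference of 0.21 ± 0.20 whose sign turned with spike-in scaling (-0.32). Stromal and osteoblast markers moved with Cxcl12: of 12 others on the array, 10 were above background on both arrays, 8 of these lay below 0, the median was -0.61, and their summed signal was 71304 and 45894. Alpl (-0.98) and Col3a1 (-0.95) were lowest, Lepr (0.16, a further probe 0.05) and Dcn (0.03) highest, and Runx2 and Lum were not well above background on either array. Their part in the Cxcl12 value was not tested.

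The Cxcl12 promoter is shown with each CpG in capitals, 5′ to 3′ on the plus strand of GRCm38.p6.
Cxcl12, chr6:117168285-117168584: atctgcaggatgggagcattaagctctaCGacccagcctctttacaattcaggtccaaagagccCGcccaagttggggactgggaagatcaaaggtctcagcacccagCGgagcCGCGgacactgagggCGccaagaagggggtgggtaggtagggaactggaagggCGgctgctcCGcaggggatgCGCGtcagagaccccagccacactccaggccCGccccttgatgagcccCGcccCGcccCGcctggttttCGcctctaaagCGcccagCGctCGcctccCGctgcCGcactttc
It holds 20 CpGs, against a median of 7 over all windows (quartiles 3 and 20). Among measured members, windows with at least 19 CpGs were those of Cxcl12, Cxcl14 (22), Cx3cl1 (19), Cxcr4 (20) and 1 of the 2 windows of Ccl25 (52). Their differences were -0.98, -0.54, -0.58, 0.21 and 0.11, the first 3 being among the lowest of the chemokines. The windows of Ccl6 (2), Pf4 (3), Ccl3 (3), Cxcr3 (4) and Ccr2 (1), all at least 1.5-fold higher, held few, and that of Cxcl10 held 10. Ccl24 and Cxcr5, also at least 1.5-fold higher, had no window. Lower members with few CpGs were Ccl12 (2), Ccr1 (1), Ccr1l1 (3) and Ccr3 (1), so that 3 of the 4 members at least 1.5-fold lower had CpG-poor windows as well. This grouping was made after the values were seen and is a description only.

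The other homeostatic and membrane-bound chemokines were mixed. Cxcl14, which many epithelia secrete, went from 1359 to 913 (-0.54 ± 0.20). The 3 probes of Ccl27a, a skin chemokine with near-identical copies in the genome that make it uncertain, lay at -0.26, -0.37 and -0.24. Ccl25, a thymus and gut chemokine that acts on Ccr9, had signals of 963 and 1020 (0.11 ± 0.20). Of the pair anchored in the membrane, Cx3cl1 went from 282 to 184 (-0.58 ± 0.21) and Cxcl16 from 2048 to 2717 (0.44 ± 0.20, and -0.10 with spike-in scaling). Their receptors lay at 0.36 ± 0.20 (Cx3cr1, 1117 and 1401, a further probe 0.38) and 0.27 ± 0.24 (Cxcr6, 86.7 and 103, a further probe 0.43). Cx3cl1 and its receptor were thus on opposite sides of 0 under the 75th percentile scaling, while with spike-in scaling both were below it (-1.12 and -0.18). Ccl26, Ccl28, Cxcl13, Cxcl17 and Xcl1 were not well above background on either array.

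All 5 measured CXC receptors lay above 0, with a median of 0.54 (0.01 with spike-in scaling, where Cxcr4 and Cxcr6 turn below 0). Besides Cxcr3 they include Cxcr5, the receptor of follicular B and T cells, which was dim (38.2 and 63.4) with a difference of 0.76 ± 0.30 and of 0.26 after normexp background correction. Cxcr2, the receptor by which neutrophils sense CXC chemokines, went from 121 to 172 (0.54 ± 0.22, 0.01 with spike-in scaling). Neutrophil markers were higher too: all 10 were above background on both arrays and lay above 0, with a median of 0.47 (-0.07 with spike-in scaling) and a summed signal of 228670 and 275632, from Mmp8 (1.08) and Retnlg (0.70) to Elane (0.15) and Csf3r (0.02). Lymphocyte markers moved less: 6 of 7 measured T and NK markers lay above 0 with a median of 0.18 and a summed signal of 17299 and 18928 over all 13, and 5 of 6 measured B markers with a median of 0.18 and a summed signal of 5452 and 5941 over all 8. Cd3d, Cd3g, Cd8a, Cd8b1, Klrb1c, Ncr1 and Igll1 were not well above background on either array. Cd2 (0.72, a further probe 0.76) and Cd4 (0.37, a further probe 0.78) were at the high end of the T and NK list, Cd5 (-0.68) and Gzma (0.03) at its low end, while Vpreb1 (0.46) and Cd79a (0.22) were highest and Ebf1 (-0.72) lowest among the B markers. Endothelial markers (4 of 7 measured, median 0.12, from Plvap at -0.63, with a further probe at -0.24, to Eng at 0.69) and mast cell and basophil markers (3 of 6 measured, median 0.55, from Mcpt8 at -0.32 to Prss34 at 0.77) were mixed. The part of these cells in the values of Cxcr2, Cxcr3 and Cxcr5 was not tested. The spots of Cxcr5, Ccl5, Cxcl14 and the further Cxcl12 probe lie in the upper rows of the array, where 2.18% of measured genes were past 2-fold, against 1.55% over the whole array. The spots of Ccl9, Cxcr4, Ccl25, Ccl8, Ccr6 and the further Cxcr6 probe lie there too, as do 2 of the 10 Ccl2 spots.

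The remaining CC receptors differed by less than their scanner error: Ccr6, the receptor of Ccl20, by 0.10, the lymph node homing receptor Ccr7 by 0.06, Ccr8 by -0.04 and the gut homing receptor Ccr9 by 0.18. That error exceeds the spread of repeated spots seen for Ccl2, so these genes are not shown to be equal on both arrays. Dendritic cell markers other than members lay above 0 in 5 of 7 cases, with a median of 0.40 (-0.13 with spike-in scaling) and a summed signal of 133051 and 130660 over 8 genes, most of it from Siglech alone (130427 and 128085). Cd209a (0.77) and Batf3 (0.64) were highest, Fscn1 (-0.39) and Itgax (-0.15) lowest, and Clec9a was not well above background on either array. Ccr4, Cxcr1, Xcr1, Ackr2, Ackr3 and Ackr4 were not well above background on either array. Ccr10 (5.88 and 24.1) and Ackr1 (23.2 and 25.3) were so on the knockout array only, and neither gives a fold beyond the detection limit of the wild type array. No atypical receptor was therefore measured on both arrays.

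**Figure D3:**
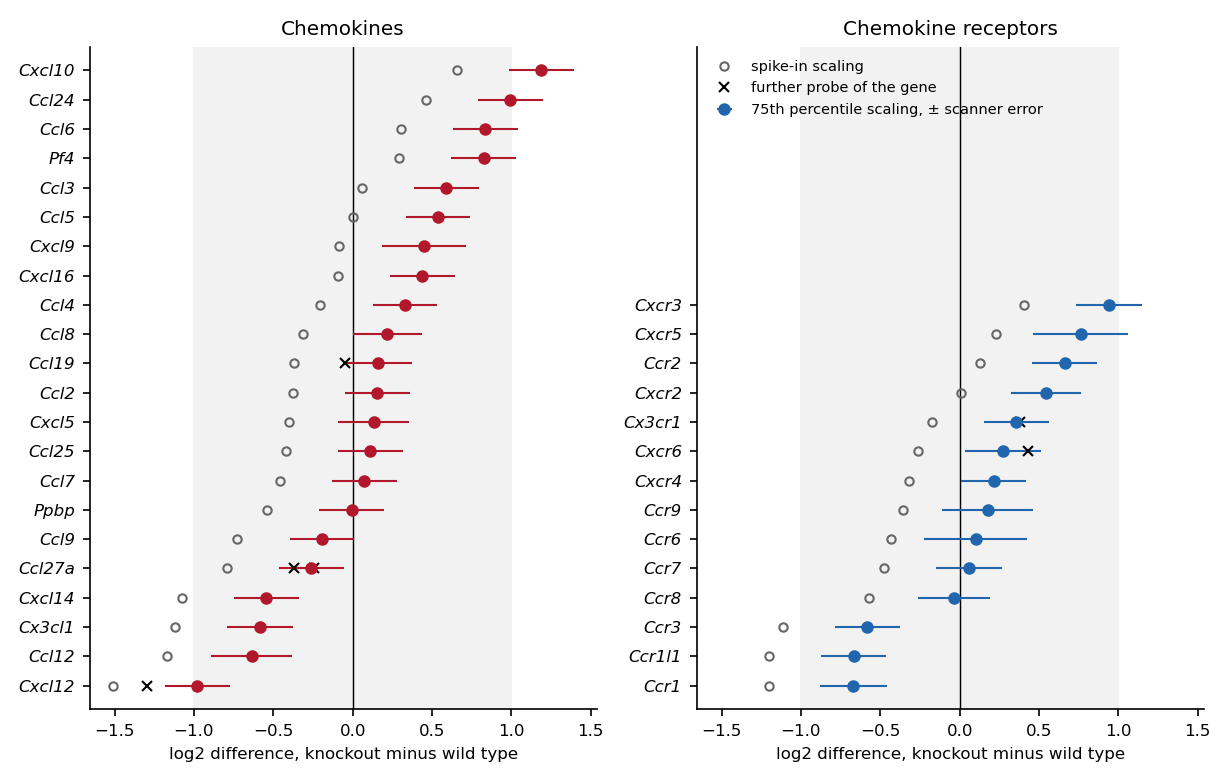
Log2 difference (x axis, knockout minus wild type) of the chemokines and receptors measured on both arrays and reported here, ordered by value. Filled points with bars give the 75th percentile scaling and the scanner error, open circles the spike-in scaling, crosses further probes of a gene, and grey shading differences under 2-fold. Cxcl10 at 1.19 lies past 2-fold and Cxcl12 at -0.98 just short of it. With spike-in scaling 10 genes keep a value above 0, against 7.25% of all measured genes.

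Genes through which chemokine receptors signal lay mostly above 0 by small amounts under the 75th percentile scaling. In the list of receptor signalling and desensitisation, 40 of 42 genes were measured, 31 of them above 0, with a median of 0.14 (-0.39 with spike-in scaling). Of the 40, 4 were at least 1.5-fold higher and 1 lower, against 5.82% and 4.69% of all measured genes. Rgs14, a regulator that shortens G protein signals, was highest (0.84), followed by the G protein subunit Gng2 (0.72), and Grk3, a kinase that desensitises receptors, was lowest (-0.68), with the adaptor Bcar1 at -0.56. Migration machinery lay close to 0, with a median of 0.04 over 22 genes (12 above 0). Dock2, an activator of Rac in moving leukocytes, was at 0.52 (a further probe 0.72) and Vav2 at 0.37, while Tiam2 (-0.77) and Rac2 (-0.28) were lowest. Other chemoattractant receptors were higher in 13 of 15 cases, with a median of 0.53 that became -0.01 with spike-in scaling. Of these 15, 6 were at least 1.5-fold higher, against 5.82% of all measured genes. The formyl peptide receptor family member Fpr3 (32.1 and 66.3, difference 1.08 ± 0.36) and the nucleotide receptor P2ry12 (0.89) led, and Gpr183 (-0.19) and Fpr1 (-0.01) were lowest. Among 15 enzymes and partners that cut, sulphate or bind chemokines, 8 lay above 0, with a median of 0.10: Mmp8 (1.08) and the sulphotransferase Tpst1 (0.72) were highest, and the gelatinases Mmp9 (-0.58) and Mmp2 (-0.49) lowest.

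**Figure D4:**
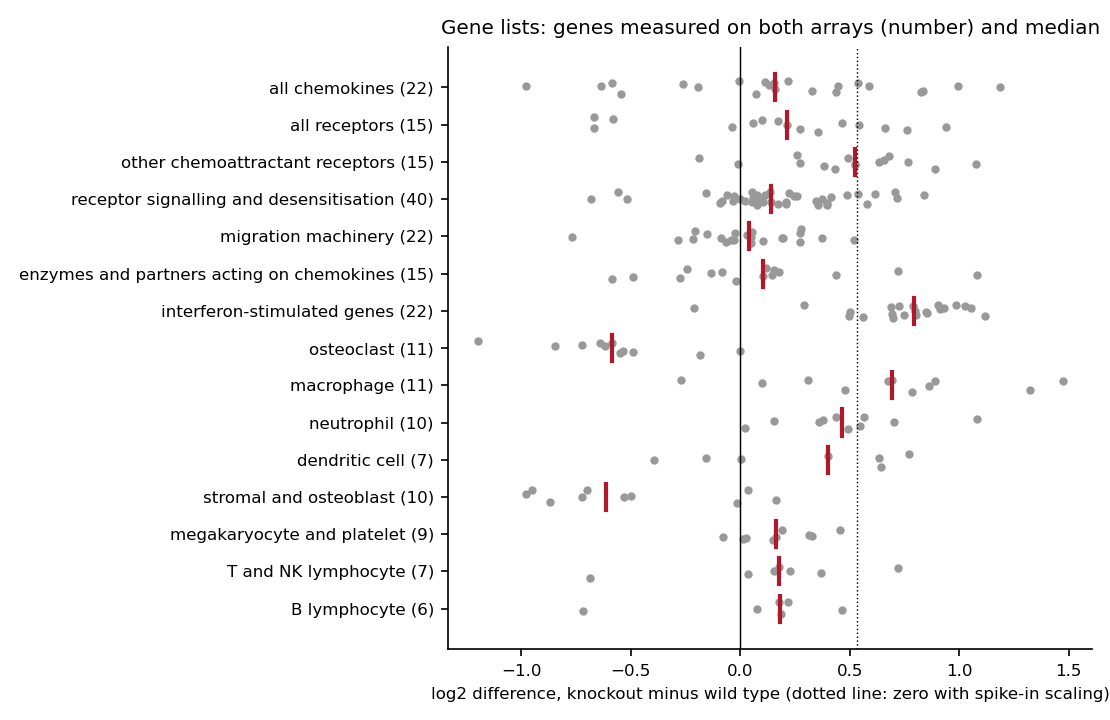
Log2 difference (x axis, knockout minus wild type) of each gene measured on both arrays (grey points, spread vertically for clarity) in the family, in pathway lists and in cell type marker lists without members of the family, with the number of genes in brackets and the list median as a red bar. The dotted line is where 0 would lie with spike-in scaling: the medians of interferon-stimulated genes (0.79) and macrophage markers (0.69) lie to its right, and that of the chemokines (0.16) to its left.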

How the data were processed

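Gene expression was measured on 1 array per genotype. The authors deposited scanner files whose intensity values were background-subtracted and detrended within each array by Agilent Feature Extraction 10.10.1.1, per the file headers, with no normalization between arrays. The submitters' processing notes name version 9.1. The deposited value table is the same intensity times 1 factor per array (1.55 and 1.54). Both arrays came from 1 slide and scan. The log2 signal minus that of each array's 75th percentile over 59305 non-control spots was used, and spots marked as outliers were left out (no spot of a member was marked or saturated). The brightest probe stood for a gene (59 genes, 9 with several probes). Of 55649 probes, 27224 were named through RefSeq accessions (GRCm38.p6). Well above background is the scanner software's own mark. For a probe above background on 1 array, the bound sets the bright signal against the dim probe or the lowest signal well above background on that array, whichever is higher. Some probes above that lowest signal still lack the mark, so it is not a strict detection limit. All members are named, and of each further list the 2 highest and 2 lowest, except that the values of 1 member and of a few list genes are not reported here, though counts and medians include them. The members and lists were chosen with earlier results of these data known, and the size of 1.5-fold, the gene order and the promoter CpG counts after the values were seen. Alternatives were 10, of which normexp (limma 3.58.1, R 4.3.3, offset 50) used median spot signals. The scripts that compute differences were tried on simulated arrays with planted differences, which is no test of the differences reported. Python 3.11.15, numpy 2.4.6 and pandas 2.3.3 were used.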

Additional observations from a re-analysis of the deposited data

How the results depend on the processing

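No paired analysis was possible because each genotype has 1 array and no replicate numbers. Of the 37 measured members, 20 kept the sign of their difference under every alternative that could be computed for them. Part of this count was fixed in advance. Spike-in scaling lowers every value, so it could not turn the 11 members already below 0. Alternatives that only choose among spots or probes return the same value for a gene with 1 spot. Spike-in scaling moved all 37 by more than their scanner error and turned the medians of the chemokines from 0.16 to -0.37 and of the receptors from 0.21 to -0.32. It put 7 members past 2-fold, 7 lower and 0 higher, and past 1.5-fold it left 1 higher and 9 lower. Of all measured genes, 7.73% were then past 2-fold and 40.9% past 1.5-fold in either direction. The share of members was larger than this at 2-fold (7 of 37) and smaller at 1.5-fold (10 of 37). The single spike-in probes shifted by 0.30 to 0.73, and 6 members (Cxcl10, Ccl24, Cxcr3, Ccl6, Pf4 and Cxcr5) stayed above 0 even at the highest. Outside spike-in scaling, sign changes were seen for Ccr6 (quantile normalization and normexp) and Ppbp (normexp). With quantile normalization, the median of probes, the deposited value table or the mean of a gene's probes, 2 members were past 2-fold, Cxcl12 being the 1 at least 2-fold lower. The share over all measured genes was 1.48% to 1.60% in these settings. With no filter on dim probes 4 of the 59 members were past 2-fold (3 higher, 1 lower), against 7.99% of all genes. Normexp left 6 members at least 1.5-fold higher and 2 lower, against 5.80% of all genes in either direction. It moved 3 members beyond their error (Ccl12, Cxcl9 at 0.16 and Cxcr5). At or above the median level 15 members remained, with 5 past 1.5-fold (4 higher, 1 lower), against 7.20% of all genes at that level. Without the upper rows of the array, chosen from earlier results, there were 28 members, and without the corner 34, an alternative added after the data were seen like normexp on median signals; neither moved a count by over 1.5 times. The number of arrays limits the precision of every value, and members with signals under about 100 rest on little above background.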
